A study of Mus musculus with 214 samples.

Results

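The genes described here are 10 effectors of the type I interferon response, Isg15, Ifit1, Ifit2, Ifit3, Oas1a, Oasl1, Oasl2, Rsad2, Ifi27l2a and Ifi27l2b. They were chosen by name and matched by gene symbol, and all 10 were found among the 18647 genes of the WT table and the 19540 genes of the Mgmt-/- table. Their values were compared between livers of mice given N-nitrosodimethylamine (NDMA), a carcinogen that alkylates DNA after activation in the liver, and livers of mice given saline. WT mice were RaDR+/+;GPT+/+ and Mgmt-/- mice were RaDR+/+;GPT+/+;Mgmt-/-, both on a C57BL6 background, so that the control genotype carried both reporter alleles too. The authors write these genotypes as RaDR R/R;gptg/g and RaDR R/R;gptg/g;Mgmt-/-, on C57BL/6. RaDR is a fluorescent reporter of recombination between direct repeats and GPT is a bacterial transgene for scoring mutations. Mgmt encodes the protein that removes methyl groups from the O6 position of guanine. Mice of both sexes were injected intraperitoneally at postnatal days 8 and 15 with NDMA (3.5 mg/kg, then 7 mg/kg) or equal volumes of saline. Litters rather than single pups were assigned to a treatment. Livers were collected 1, 2 and 5 days, 10 weeks and 10 months after the second injection. The numbers of NDMA and saline livers, in this order of time, were 26 and 21, 8 and 8, 8 and 7, 8 and 8, and 13 and 10 in WT mice. They were 12 and 12, 8 and 7, 8 and 6, 8 and 8, and 13 and 12 in Mgmt-/- mice.

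Interferons are secreted proteins that cells release when they sense foreign or misplaced nucleic acid. Type I interferons bind the receptor of Ifnar1 and Ifnar2, and the kinases attached to it activate a complex of transcription factors. This complex, known as ISGF3, binds a DNA element called the interferon-stimulated response element (ISRE). The genes behind such elements include the effectors described here, which in many tissues limit the translation, copying or budding of viruses. The same genes can also answer to interferon gamma, which acts through another receptor, so that their level does not name the interferon that raised it.

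RNA was measured by 3′ digital gene expression sequencing, which reads the 3′ end of each transcript, and values are normalized counts, that is reads divided by a size factor for each library. The 2 genotypes were normalized in separate tables, so levels were compared only within a genotype, and genotypes were compared by their response to NDMA. WT libraries held 150038 to 4791649 reads (median 1700411, n = 117) and Mgmt-/- libraries 713584 to 7740710 (n = 96). The targeted gene separated the labelled genotypes: Mgmt was between 13 and 130 normalized counts in the 117 WT livers (median 45.8) and between 0 and 9.67 (median 1.15) in 94 Mgmt-/- livers, with 30 of them at 0. Alb, the albumin gene that marks hepatocytes, was at least 25257 normalized counts in every WT liver. It was at least 29810 in every Mgmt-/- liver used.

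Several libraries stood apart. Saline replicates D389011 and D389017 of Mgmt-/- mice at day 5 had high levels of the kidney gene Kap (over 1000 normalized counts) and were left out. NDMA replicates D209072 and D209077 of WT mice at day 1 had Xist and Y-linked genes that went against their labelled sex. Both were low in Ifi27l2b (10.5 and 9.51 normalized counts). Their Mgmt levels were 28.0 and 32.6 normalized counts, where the other 4 NDMA livers of batch 200803Eng at day 1 had 72.0 to 95.6 and the 4 saline livers had 28.8, 35.9, 48.6 and, in D209074, 128.5. The treatment labels of that batch were used as given, and whether samples were exchanged in it was not tested. Saline replicates D215004 (WT day 2, 392164 reads) and D215012 (WT day 5, 871541 reads) were the highest saline livers of their group in 9 and in 6 of the 10 genes. Their Mgmt levels, 85.0 and 77.1 normalized counts, were also above those of all other saline livers of their group. Both lay within the range of the NDMA livers of their time, 47.3 to 115.7 at day 2 and 45.9 to 90.2 at day 5. Their treatment labels were used as given too, and whether these samples were exchanged was not tested. In 4 WT NDMA livers, D215006 at day 2, D215014 at day 5, D215022 at week 10 and D215030 at month 10, there were fewer than 300000 reads. In them 1 read was worth 10.5, 8.20, 6.84 and 6.50 normalized counts, so that their values of low genes are coarse. Values without these libraries are given beside the member calls that changed.

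The promoters of 8 of the 10 genes were found in the RefSeq windows of GRCm38.p6, and the 250 bases before each start were searched on both strands for the ISRE core GAAANNGAAA (TTTCNNTTTC on the other strand). Such a core was in 978 of all 32851 windows (2.98%), and it was in windows of 5 of the 8 genes, Ifit1, Ifit3, Isg15, Oas1a and Rsad2. The 80-base stretches that hold the cores are printed below because they are the sequence feature that these 5 effectors share, 5′ to 3′ on the strand of the gene, with the bases of each core in capitals. The stretch of Ifit1 is chr19:34640759-34640838 (+ strand), that of Ifit3 chr19:34583355-34583434 (+), that of Isg15 chr4:156200846-156200925 (-), that of Oas1a chr5:120907526-120907605 (-) and that of Rsad2 chr12:26456528-26456607 (-).
Ifit1: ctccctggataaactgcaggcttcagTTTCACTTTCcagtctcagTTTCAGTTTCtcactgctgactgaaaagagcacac
Ifit3: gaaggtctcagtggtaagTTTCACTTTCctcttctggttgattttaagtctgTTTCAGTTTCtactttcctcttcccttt
Isg15: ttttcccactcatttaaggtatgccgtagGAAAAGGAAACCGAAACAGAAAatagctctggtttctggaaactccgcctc
Oas1a: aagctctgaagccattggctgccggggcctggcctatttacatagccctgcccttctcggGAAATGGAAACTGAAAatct
Rsad2: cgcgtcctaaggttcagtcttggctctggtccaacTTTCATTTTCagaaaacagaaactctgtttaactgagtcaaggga
Ifit1 and Ifit3 each had 2 separate cores, Isg15 had 3 that overlap, Oas1a had 2 that overlap and Rsad2 had 1. These letters were not found in the windows of Ifit2, Oasl1 and Oasl2, which says nothing of binding, and Ifi27l2a and Ifi27l2b had no window in the table. The GAS core TTCNNNGAA, an element of the answer to interferon gamma, was in the windows of Ifit2 and Oas1a and in 7.02% of all windows.

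Their positions are given on GRCm38. Ifit2 (chr19:34550694-34576419), Ifit3 (chr19:34583531-34588731) and Ifit1 (chr19:34640871-34650009) are neighbours, as are Oasl2 (chr5:114896936-114912234) and Oasl1 (chr5:114923240-114937915), all on the + strand. Oas1a (chr5:120896256-120907521) lies farther along the same chromosome, on the - strand. Ifi27l2a (chr12:103442167-103443680) and Ifi27l2b (chr12:103450898-103457223) are neighbours on the - strand, Rsad2 (chr12:26442746-26456452) lies far from them, and Isg15 is at chr4:156199424-156200818. Reads of near-identical copies cannot always be told apart: of the 50-base words in the last 500 bases of the annotated transcripts, 56.1% of those of Oas1a also occur in Oas1g and 14.9% of those of Ifit3 in Ifit3b, so both genes are uncertain to that extent. For the other 8 genes this share was below 1%.

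NDMA raised most of these genes in Mgmt-/- livers, and in WT livers between 2 and 5 of them passed the test at days 1, 2 and 5, counts that moved with single livers at days 2 and 5, and 0 later. In each comparison limma was run on log2(normalized count + 1) over all genes with a mean of at least 5, with sex and library batch as terms. A gene was called where the adjusted p (Benjamini-Hochberg over all genes) was below 0.05 and the log2 fold change passed 0.58 in size. In Mgmt-/- livers 8 of 9 tested genes were higher at day 1, against 9.06% of all genes, 9 of 9 were on day 2 (12.4% of all genes) and again on day 5 (11.1%), 7 of 9 by week 10 (7.27%) and 6 of 9 by month 10 (4.75%). In WT livers the counts were 5 of 9 at day 1 (5.01% of all genes), 3 of 9 for day 2 (3.33%), 2 of 9 for day 5 (2.22%), 0 of 9 for week 10 (0.0249%) and 0 of 7 for month 10 (0%). The WT counts rest on single livers in part: the 3 of day 2 became 5 without D215004 or without D215006, and the 2 of day 5 became 1 without D202009, D202010 or D215011 and 3 without D215012 or D215014. In Mgmt-/- livers the 7 of week 10 ran from 5 to 8 with each liver left out in turn. No member was called lower in any of the 10 comparisons. The shares of all genes called lower were 4.19%, 2.91%, 1.39%, 0% and 0% in WT livers and 8.64%, 7.5%, 6.71%, 3.88% and 2.99% in Mgmt-/- livers. Oas1a had a mean below 5 in all 10 comparisons and was not tested in them, and neither were Isg15 and Oasl2 at month 10 in WT mice.

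The median log2 fold change of the tested members in Mgmt-/- livers was 1.37, 1.66, 2.02, 1.11 and 1.11 from day 1 to month 10, where that of all genes tested lay between -0.01 and 0.04. In WT livers it was 0.73, 0.76, 0.58, 0.16 and 0.63, against -0.08 to -0.03 for all genes, and 7 of 7 values at month 10 were above 0 (6 of 6, 6 of 8 and 6 of 7 within its batches). The members that the filter kept out there had values under other settings. Oas1a was at -0.25 with no filter, Isg15 at -0.78 in batch 200803Eng alone and Oasl2 at -0.31 in batch 200724Eng alone. With no filter and all batches, the Oasl2 log2 fold change in Mgmt-/- minus that in WT livers was 1.62. This is less than the 1.96 of Mgmt-/- livers, so the WT value of Oasl2 over all batches was above 0. Ifi27l2b was called in 8 of the 10 comparisons, Isg15, Ifit2, Oasl1 and Ifi27l2a in 6 each, Ifit1 and Rsad2 in 5, Ifit3 in 4 and Oasl2 in 3. In WT mice limma called 2 of all genes at week 10 and 0 at month 10, and edgeR and DESeq2 called 0 members at both times. An unadjusted p under 0.05 was found in 2 of 9 members at week 10, against 350 of 8048 genes tested. At month 10 it was found in 4 of 7 members, against 757 of 9254 genes. Because these are whole livers, more cells of a type and more RNA per cell cannot be told apart. The p-values measure the spread between the livers of each group. Litters were assigned to a treatment and the labels do not name them, so no litter term was fitted and livers were treated as independent. The p-values may be too small where littermates are alike.

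**Figure D1:**
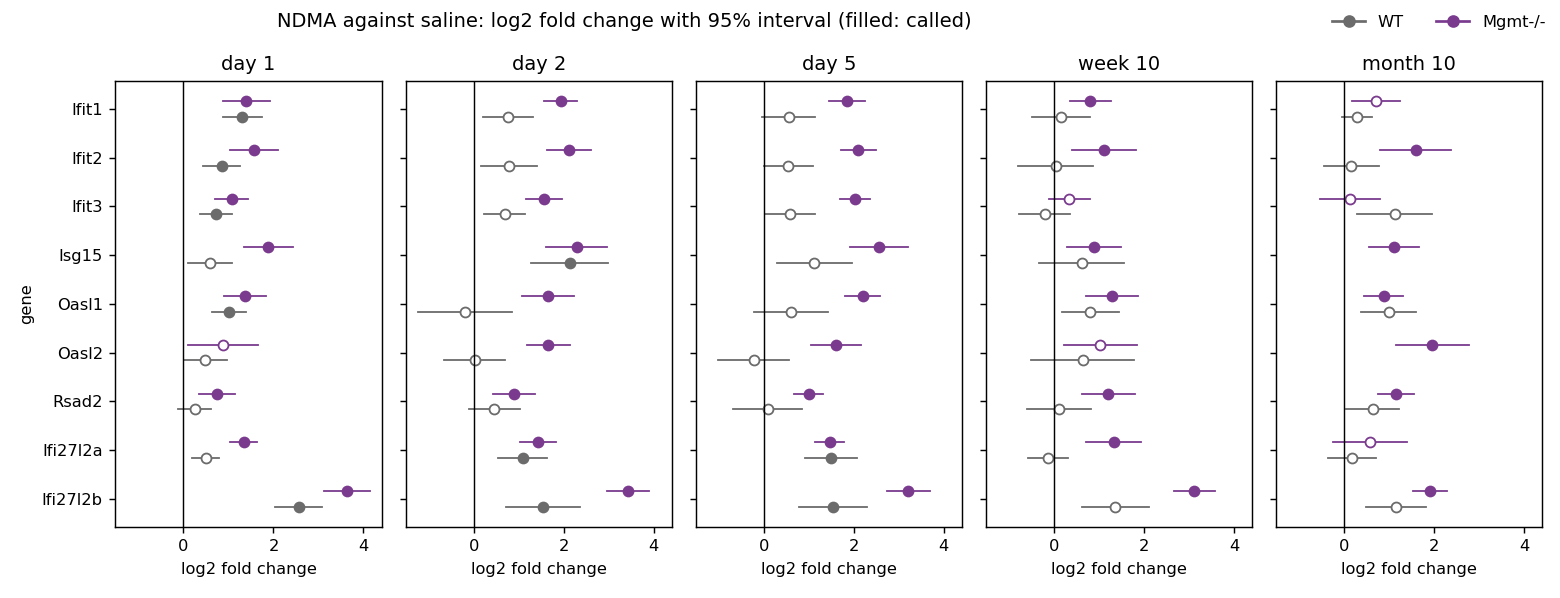
Log2 fold change, NDMA against saline, on the x axis for the 9 tested effector genes (y axis) with a panel for each time, in WT (grey) and Mgmt-/- (purple) livers; bars are 95% confidence intervals and filled points passed the test. The Mgmt-/- points lie above 0 for every gene and time shown, and no WT point of week 10 or month 10 is filled.

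Isg15 encodes a small ubiquitin-like protein that is joined to other proteins and is also secreted. In Mgmt-/- mice at day 1 the 12 saline livers had 0.836 to 11.4 normalized counts (median 6.78) and the 12 NDMA livers 5.16 to 55.2 (median 26.7), with 10 of the NDMA livers above the highest saline liver (log2 fold change 1.88, SE 0.27, adjusted p = 9.94e-07, limma). At day 2 saline livers had 1.72 to 8.26 (median 4.62) and NDMA livers 9.65 to 58.7 (median 18.7). At day 5 saline livers had 2.36 to 7.16 (median 4.59) and NDMA livers 12.4 to 75.6 (median 28.0). The groups did not overlap at these last 2 times, and the log2 fold changes were 2.29 (SE 0.33, adjusted p = 5.82e-06, limma) and 2.56 (SE 0.32, adjusted p = 1.14e-06, limma), the latter being a 5.90-fold rise. At week 10 the change was smaller, from 3.69 to 16.6 (median 9.67) in saline livers to 12 to 26.4 (median 17.4) in NDMA livers, with a log2 fold change of 0.89 (SE 0.29, adjusted p = 0.0486, limma). This call was lost without any of 12 of the 16 livers in turn, under edgeR (0.88, adjusted p = 0.0537), with no filter on low values (adjusted p = 0.0643) and with pseudocount 0.5 (0.0506). At month 10 saline livers had 1.94 to 9.65 (median 4.94) and NDMA livers 2.81 to 30.9 (median 12.9), and Isg15 was again higher (1.11, SE 0.28, adjusted p = 0.00883, limma).

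In WT mice Isg15 was called at day 2, where 8 saline livers had 0 to 15.5 normalized counts (median 4.20) and 8 NDMA livers 11.8 to 42.1 (median 18.9), with 6 NDMA livers above all saline livers (log2 fold change 2.13, SE 0.41, adjusted p = 0.00312, limma). At day 1 the medians of saline and NDMA livers were 2.64 and 3.02 (log2 fold change 0.58, adjusted p = 0.079, limma). These medians pool batches at unlike levels. In batch 210901Eng, with 21 of the 47 livers, Isg15 was near the limit of detection (0 to 1.41 in saline and 0 to 3.64 in NDMA livers) and below the filter. Batch 191212Eng had medians of 4.61 and 7.47 (0.94, adjusted p = 0.0707) and batch 200803Eng had 6.72 and 15.9 (0.50, adjusted p = 1.00). The pooled value passed under edgeR on the recovered reads (0.99, adjusted p = 0.00909), without D209072 (0.65, adjusted p = 0.0343) and without both libraries of doubtful sex (0.73, adjusted p = 0.0135). At day 5 the log2 fold change was 1.12 (SE 0.40, adjusted p = 0.127, limma), and it passed without saline replicate D215012 (1.35, adjusted p = 0.0407). At week 10 it was 0.62 (adjusted p = 0.91). At month 10 Isg15 was below the filter over all batches, and in batch 200803Eng alone it was -0.78 (adjusted p = 0.861, limma).

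**Figure D2:**
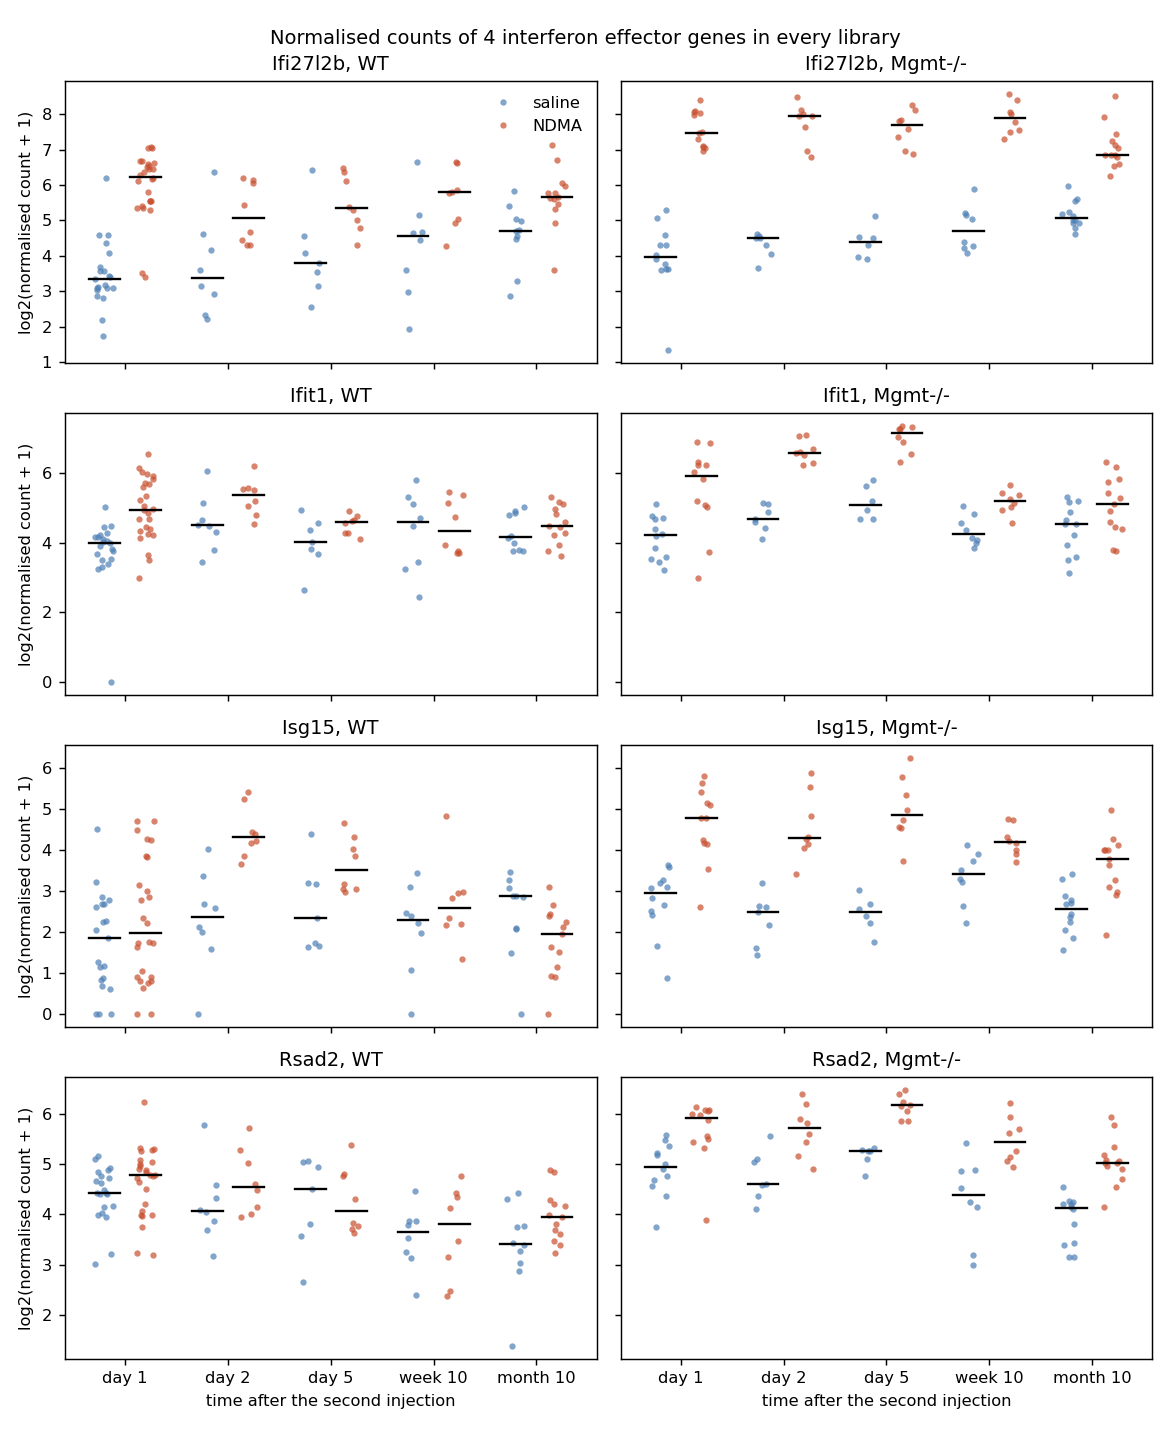
Log2(normalized count + 1) of Ifi27l2b, Ifit1, Isg15 and Rsad2 (y axis) in each liver by time (x axis), with saline livers in blue, NDMA livers in red, a panel for each genotype and a line at the median of each group. In Mgmt-/- livers at day 5 the NDMA points of Ifit1 (78.9 to 165) and Ifi27l2b (117 to 308) all lie above the saline points, whereas the WT groups overlap.

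Ifit1, Ifit2 and Ifit3 encode proteins with tetratricopeptide repeats that bind RNA lacking the usual cap methylation, or one another, and block its translation. Ifit1 in Mgmt-/- mice had 8.36 to 33.5 normalized counts (median 17.7) in saline livers and 6.90 to 120 (median 60.5) in NDMA livers at day 1, then 16.2 to 34.8 (24.8) and 75.5 to 137 (96.2) on day 2, then 24.6 to 55.2 (33.0) and 78.9 to 165 (143) on day 5. The groups overlapped at day 1, where 8 of 12 NDMA livers were above all saline livers, and did not overlap at days 2 and 5. The log2 fold changes were 1.40 (SE 0.25, adjusted p = 7.08e-05, limma), 1.94 (SE 0.18, adjusted p = 3.96e-09) and 1.85 (SE 0.20, adjusted p = 1.59e-07). At week 10 saline livers had 13.5 to 32.6 (median 18.3) and NDMA livers 22.9 to 50.3 (median 36.0), a log2 fold change of 0.81 (SE 0.22, adjusted p = 0.0171, limma). At month 10 the value of 0.71 (SE 0.26) did not pass with limma (adjusted p = 0.0838) and passed with edgeR (0.87, adjusted p = 0.0424). In WT mice Ifit1 was higher at day 1, where 21 saline livers had 0 to 31.8 (median 14.9) and 26 NDMA livers 6.99 to 92.9 (median 30.2), with a log2 fold change of 1.31 (SE 0.21, adjusted p = 5.06e-06, limma). From day 2 on its log2 fold change in WT mice was 0.76, 0.56, 0.16 and 0.29, and none passed the test. The value of day 2 passed without saline replicate D215004 (0.93, adjusted p = 0.0158) or NDMA replicate D215007 (0.90, adjusted p = 0.0445).

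Ifit2 had the highest log2 fold change of the 3 in Mgmt-/- livers on each of days 1, 2 and 5, differences among the 3 genes that were not tested. Its saline and NDMA values were 3.29 to 15.1 (median 9.54) and 6.17 to 69.4 (35.2) at day 1, then 10.4 to 23.2 (17.2) and 51.0 to 160 (70.2) on day 2, then 15.5 to 27.1 (18.1) and 52.2 to 126 (79.3) on day 5, so the groups were apart at days 2 and 5. Ifit2 rose by a log2 fold change of 1.57 (SE 0.26, adjusted p = 1.39e-05, limma), 2.11 (SE 0.24, adjusted p = 3.01e-07) and 2.10 (SE 0.19, adjusted p = 8.67e-09). At week 10 the log2 fold change was 1.11 (SE 0.34, adjusted p = 0.0338, limma), a call that was lost without any of 8 of the 16 livers in turn, and at month 10 it was 1.59 (SE 0.39, adjusted p = 0.00775). The levels were low by then, 2.09 to 14.1 in saline and 7.92 to 26.3 in NDMA livers at week 10, and 0 to 14.5 and 5.31 to 28.5 at month 10, with overlap at both times. In WT livers Ifit2 was higher at day 1, from 4.23 to 23.2 (median 10.5) in saline to 3.49 to 50.8 (median 20.8) in NDMA livers (log2 fold change 0.85, SE 0.21, adjusted p = 0.00161, limma). At day 2 the value was 0.78 (SE 0.30, adjusted p = 0.128), which passed under edgeR (1.09, adjusted p = 0.0174) and DESeq2 (1.09, adjusted p = 0.00515) and without NDMA replicate D215006 (1.05, adjusted p = 0.00117). The values of 0.54, 0.04 and 0.16 at the later times did not pass.

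Ifit3 reached its highest levels at day 5 in Mgmt-/- livers. Saline and NDMA livers had 18.1 to 48.7 (median 29.6) and 16.5 to 119 (71.8) normalized counts at day 1, then 22.6 to 61.7 (46.2) and 97.3 to 187 (121) on day 2, then 33.7 to 59.6 (46.0) and 143 to 296 (189) on day 5. The log2 fold changes were 1.08 (SE 0.18, adjusted p = 1.53e-05, limma), 1.57 (SE 0.20, adjusted p = 1.21e-06) and 2.02 (SE 0.16, adjusted p = 1.53e-09), with groups apart at the last 2 of these times. Later, Ifit3 was not called: medians were 24.1 and 30.0 at week 10 (log2 fold change 0.34, adjusted p = 0.371) and 15.8 and 21.8 at month 10 (0.13, adjusted p = 0.855). In WT mice it rose at day 1 (medians 29.2 and 54.7, log2 fold change 0.73, SE 0.18, adjusted p = 0.00204, limma), with 16 of 26 NDMA livers above all 21 saline livers. At day 2 the value was 0.69 (adjusted p = 0.0637), in a group whose saline replicate D215004 had 88.9, far above the saline median of 33.8. It passed without D215004 (0.86, adjusted p = 0.0035) or D215006 (0.73, adjusted p = 0.016). At day 5 it was 0.58 (adjusted p = 0.26) and passed without D215014 (0.80, adjusted p = 0.015) and under DESeq2 (0.72, adjusted p = 0.0255). At week 10 the WT medians were 27.0 and 22.0 (-0.21, adjusted p = 0.914). At month 10 they were 10.2 and 15.7, with a log2 fold change of 1.12 (SE 0.40, adjusted p = 0.554, limma) and 2.21, 0.52 and 0.74 within its batches. That value was above the 0.13 of Mgmt-/- livers, a genotype by treatment term of -0.995 (95% CI -2.07 to 0.08, adjusted p = 0.437) that did not pass.

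Oasl1, Oasl2 and Oas1a belong to the family of oligoadenylate synthetases. Oas1a makes the 2′-5′-linked oligoadenylates that switch on RNase L, whereas Oasl1, which lacks that activity, is known to hold back translation of Irf7. Oasl1 in Mgmt-/- livers had saline medians of 7.64, 13.2, 16.4, 14.3 and 17.2 and NDMA medians of 26.4, 47.5, 78.2, 45.6 and 30.4 from day 1 to month 10. It was higher at every time, with log2 fold changes of 1.37, 1.65, 2.20, 1.29 and 0.88. The rise was greatest at day 5, where saline livers had 12.3 to 29.7 and NDMA livers 59.9 to 112 without overlap (SE 0.19, adjusted p = 4.18e-09, limma), and least at month 10, where saline livers had 7.24 to 27.0 and NDMA livers 18.8 to 70.0 with overlap (SE 0.21, adjusted p = 0.00678). In WT mice it rose at day 1, from 1.26 to 15.5 (median 7.78) to 4.66 to 38.2 (median 15.0), with a log2 fold change of 1.02 (SE 0.19, adjusted p = 2.80e-05, limma). The values of -0.20, 0.61, 0.81 and 0.99 at the later times did not pass.

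Oasl2 in Mgmt-/- livers passed the test with limma at days 2 and 5 and at month 10. Saline livers had 8.08 to 23.5 (median 10.3) and NDMA livers 24.7 to 63.0 (median 38.6) at day 2, without overlap, and at month 10 they had 0 to 7.72 (median 3.35) and 2.35 to 43.1 (median 11.3), with 10 of 13 NDMA livers above all saline livers. The log2 fold changes were 1.66 (SE 0.23, adjusted p = 3.47e-06, limma) and 1.96 (SE 0.40, adjusted p = 0.00146). At day 1 the value of 0.88 (SE 0.38, adjusted p = 0.0915, limma) was not called. There NDMA replicate D209091 (879187 reads) of batch 200803Eng had 0. The 4 NDMA livers of that batch had 0 to 16.6 and its 4 saline livers 1.64 to 15.3 (log2 fold change -0.29). NDMA livers of batch 191212Eng had 14.9 to 43.6. Without D209091, an omission chosen after seeing the data, the log2 fold change over both batches was 1.19 (adjusted p = 0.00173, limma). The value of day 1 passed under edgeR too (1.14, adjusted p = 0.00371). At day 5 saline livers had 4.93 to 23.8 (median 10.3) and NDMA livers 22.8 to 53.8 (median 38.5), overlapping in 1 NDMA liver (log2 fold change 1.60, SE 0.27, adjusted p = 8.41e-05). At week 10 the value of 1.03 (SE 0.39, adjusted p = 0.0966) did not pass with limma, and it passed under edgeR (adjusted p = 0.0169) and DESeq2 (1.33, adjusted p = 0.00667) and without D209004 (1.26, adjusted p = 0.0291) or D209005 (1.32, adjusted p = 0.014). In WT livers the log2 fold changes of Oasl2 from day 1 to week 10 were 0.49, 0.02, -0.23 and 0.64, and none passed with limma. That of day 1 passed under edgeR (0.63, adjusted p = 0.0413) and DESeq2 (0.62, adjusted p = 0.0313).

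Oas1a was close to the limit of detection, where a few reads set each value. In Mgmt-/- livers its saline and NDMA medians were 0.603 and 2.49 normalized counts at day 1, followed by 1.48 and 3.34 (day 2), 0.967 and 6.18 (day 5), 1.78 and 5.20 (week 10), then 0 and 2.11 (month 10). At day 5, 7 of 8 NDMA livers were above the highest of 6 saline livers (1.70). With no filter on low values Oas1a was called higher at day 2 (log2 fold change 1.09, adjusted p = 0.0347, limma), day 5 (1.66, adjusted p = 0.00301) and month 10 (1.23, adjusted p = 0.0148) in Mgmt-/- mice and at day 1 in WT mice (0.63, adjusted p = 0.0379). In WT mice at day 1 the NDMA median was above the saline median in batch 210901Eng alone (6.75 against 2.43). It was below the saline median in batches 191212Eng (1.43 against 1.83) and 200803Eng (2.62 against 2.97).

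Rsad2, also called viperin, is a radical SAM enzyme that makes a chain-terminating nucleotide. It rose at all 5 times in Mgmt-/- livers, by log2 fold changes of 0.75, 0.90, 0.99, 1.21 and 1.16. Saline and NDMA livers had 12.5 to 47.1 (median 30.0) and 13.8 to 69.5 (59.8) normalized counts at day 1, and 26.3 to 38.9 (37.4) and 57.4 to 88.4 (71.2) at day 5, where the groups did not overlap (SE 0.15, adjusted p = 2.06e-05, limma). At week 10 saline livers had 6.93 to 41.8 (median 20.1) and NDMA livers 30.0 to 73.9 (median 42.8), with 4 of 8 NDMA livers above all saline livers (SE 0.29, adjusted p = 0.00534). At month 10 saline livers had 7.94 to 22.3 (median 16.4) and NDMA livers 16.7 to 60.9 (median 31.6). There 12 of 13 NDMA livers were above all saline livers (SE 0.20, adjusted p = 0.00022). In WT mice the log2 fold changes of Rsad2 were 0.25, 0.46, 0.08, 0.11 and 0.63, and none passed the test.

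Ifi27l2a and Ifi27l2b encode small membrane proteins of the Ifi27 family, whose interferon-inducible members are found at mitochondria and the nuclear envelope. Ifi27l2b had the largest log2 fold change of the 9 tested genes in Mgmt-/- livers through week 10 (at month 10 that of Oasl2 was 1.96). At all 5 times every NDMA liver was above every saline liver. Saline livers had 1.53 to 38.5 normalized counts (median 14.6) and NDMA livers 125 to 342 (median 179) at day 1, a 12.4-fold rise (log2 fold change 3.63, SE 0.25, adjusted p = 2.09e-12, limma). The ranges were 11.5 to 23.5 (median 21.6) and 111 to 358 (246) on day 2, then 14 to 33.8 (20.2) and 117 to 308 (206) on day 5. The log2 fold changes there were 3.43 (SE 0.22, adjusted p = 2.19e-10) and 3.21 (SE 0.23, adjusted p = 2.06e-09). At week 10 saline livers had 16 to 58.8 (median 25.9) and NDMA livers 156 to 382 (median 238), still an 8.68-fold rise (3.12, SE 0.22, adjusted p = 6.00e-10, limma). At month 10 saline livers had 23.5 to 61.7 (median 32.4) and 13 NDMA livers 75.1 to 368 (median 115), a 3.75-fold rise (1.91, SE 0.18, adjusted p = 2.57e-08). Such separation of the groups was rare among all genes tested at day 1 (0.776% of genes), week 10 (2.4%) and month 10 (0.129%), and more frequent on day 2 (6.19%) and day 5 (6%), when 7 and 8 of the members had it. In WT livers 0 members had it at any time (0%, 0.373%, 0.22%, 0% and 0% of all genes).

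In WT livers Ifi27l2b rose at days 1, 2 and 5. At day 1 saline livers had 2.33 to 72.7 (median 9.10) and NDMA livers 9.51 to 135 (median 74.9), with 13 of 26 NDMA livers above all saline livers and a 5.89-fold rise (log2 fold change 2.56, SE 0.26, adjusted p = 8.19e-10, limma). At day 2 the medians were 9.41 and 33.5 (1.53, SE 0.39, adjusted p = 0.0205) and at day 5 they were 12.9 and 39.6 (1.54, SE 0.36, adjusted p = 0.0214). At these 2 times the highest saline livers, D215004 with 81.1 and D215012 with 85.5, lay within or above the range of NDMA livers. The call of day 5 was lost without saline replicate D202009 (adjusted p = 0.0757), D202010 (0.0601) or D215011 (0.0536), and both calls were lost without covariates (0.0925 at day 2 and 0.129 at day 5). At week 10 (medians 22.5 and 54.5, log2 fold change 1.36, SE 0.36, adjusted p = 0.619) and month 10 (25.3 and 50.0, 1.16, SE 0.32, adjusted p = 0.444) the change was not called.

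Ifi27l2a behaved otherwise. In Mgmt-/- livers its saline and NDMA medians were 69.3 and 239 on day 1, followed by 61.4 and 168 (day 2), 75.8 and 232 (day 5) and 192 and 470 (week 10), with log2 fold changes of 1.34 (SE 0.15, adjusted p = 8.66e-09, limma), 1.42 (SE 0.19, adjusted p = 5.56e-06), 1.46 (SE 0.15, adjusted p = 8.60e-08) and 1.33 (SE 0.30, adjusted p = 0.00359). The medians of day 1 pool batches at unlike levels: they were 62.9 and 176 in batch 191212Eng and 290 and 609 in batch 200803Eng. Within these batches the log2 fold changes were 1.50 and 1.02. Saline and NDMA livers were apart at days 2 (38.7 to 92.8 against 98.2 to 249) and 5 (62.7 to 133 against 179 to 279). At month 10 saline livers ranged from 31.2 to 540 and NDMA livers from 46.7 to 410, and the log2 fold change of 0.57 (SE 0.40) was not called (adjusted p = 0.408). In WT mice Ifi27l2a was higher at day 2 (medians 92.0 and 184, 1.09, SE 0.26, adjusted p = 0.0133) and day 5 (101 and 266, 1.49, SE 0.28, adjusted p = 0.00523). At day 1 it had an adjusted p of 0.0123 (limma) with a log2 fold change of 0.49, below the limit of 0.58, and without both libraries of doubtful sex it was called (0.61, adjusted p = 0.000172). Its medians were 103 and 86.0 at week 10 (-0.14, adjusted p = 0.93) and 41.4 and 35.5 at month 10 (0.17, adjusted p = 0.849).

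At month 10 in Mgmt-/- mice the response of Ifi27l2a had a called sex term. In females the 7 saline livers had 61.9 to 540 normalized counts (median 134) and the 7 NDMA livers 46.7 to 238 (median 90.3), while in males the 5 saline livers had 31.2 to 61.7 (median 38.9) and the 6 NDMA livers 83.7 to 410 (median 187). All NDMA males were thus above all saline males, and the female groups overlapped. The sex by treatment term, female minus male response, was -2.64 (95% CI -3.85 to -1.43, adjusted p = 0.0431, limma), where 0.338% of all genes had such a term at this time. The call was lost with no filter on low values (adjusted p = 0.0685) and with every library brought to a common total (-2.49, adjusted p = 0.0626). Males alone gave a log2 fold change of 2.06 (adjusted p = 3.84e-05) and females alone -0.58 (adjusted p = 0.157). The terms of the other 8 tested members at month 10 were below 0 as well and were not called, with a median over all 9 of -1.05 against 0.07 for all genes. Of the 9, 4 had an unadjusted p under 0.05, namely Ifi27l2a, Ifit3 (-1.69, adjusted p = 0.125, limma), Ifit2 (-1.69, adjusted p = 0.197) and Ifit1 (-1.05, adjusted p = 0.235). The share of all genes with such an unadjusted p is not given here for any sex term, so these counts have no background to be read against. No member had a called sex term at the other times in Mgmt-/- mice (0%, 0%, 0% and 0.114% of all genes from day 1 to week 10; unadjusted p under 0.05 in 0, 0, 1 and 2 members). None had one in WT mice (0% of all genes at each time; unadjusted p under 0.05 in 0, 0, 1, 0 and 2 members), where sex and batch were the same split at days 2 and 5 and week 10.

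Whether NDMA raised the effectors more in Mgmt-/- than in WT mice was tested by the genotype by treatment term, the log2 fold change in Mgmt-/- minus that in WT livers, over genes in both tables, and called at an adjusted p below 0.05. At day 1 no member had a called term (0 of 9, against 0.333% of all genes with a higher one; 4 members had an unadjusted p under 0.05 and edgeR called 0), though all 9 values were above 0 (median 0.50). At day 2, 4 of 9 had a higher term, against 3.75% of all genes, namely Ifi27l2b at 1.89 (95% CI 0.90 to 2.89, adjusted p = 0.0152), Oasl2 at 1.64 (0.80 to 2.47, 0.0119), Ifit1 at 1.18 (0.50 to 1.86, 0.0276) and Ifit2 at 1.33 (0.51 to 2.16, 0.0425). At day 5 it was 6 of 9 (1.23% of all genes), among them Oasl2 at 1.83 (0.86 to 2.80, adjusted p = 0.0342) and Ifi27l2b at 1.67 (0.73 to 2.61, 0.0483). The others were Oasl1 at 1.59, Ifit2 at 1.56, Ifit3 at 1.44 and Ifit1 at 1.29. At week 10 only the neighbours Ifi27l2b (1.75, 0.88 to 2.62, adjusted p = 0.0105) and Ifi27l2a (1.46, 0.67 to 2.25, 0.0223) passed, 2 of 9 against 2.62% of all genes. At month 10 0 of 7 passed (0.401%; 2 had an unadjusted p under 0.05 and edgeR called 0). For genotype terms too, the share of all genes with an unadjusted p under 0.05 is not given here. Isg15 at day 2 was 0.16 (-0.96 to 1.28) and Ifi27l2a at day 5 was -0.03 (-0.72 to 0.66), so for these an extra response of Mgmt-/- mice above 1.28 and 0.66 lay outside the interval. At days 2 and 5 and week 10 the genotypes shared no library batch, and in these terms the genotype cannot be told apart from the batch. Several of these terms were lost, and others gained, under other settings. At day 2 that of Ifit2 was lost without saline replicate D215004 (1.25, adjusted p = 0.0602), with no filter (0.0568) and under edgeR (1.13, 0.107), and that of Ifit1 under edgeR (1.14, 0.0511). At day 5 that of Ifi27l2b was lost without libraries under 300000 reads (1.55, adjusted p = 0.0616), with pseudocount 0.5 (0.0639) and with no filter (0.0507). Those of Ifit1 and Oasl1 at day 5 were lost without D215012 (1.17, adjusted p = 0.0603, and 1.56, 0.0514) and with no filter (0.0547 and 0.0567), and that of Oasl1 also with pseudocount 0.5 (0.0639) and under edgeR (1.41, 0.0621). With the 2 saline livers of high Kap kept, the terms of Ifi27l2b (2.77, adjusted p = 0.137), Ifit1 (1.66, 0.0607) and Oasl1 (2.21, 0.0575) at day 5 did not pass. Terms gained at day 1 were those of Isg15 with pseudocount 5 (1.05, adjusted p = 0.0129) and of Ifi27l2a with a mean of at least 20 (0.84, 0.0473) or a common total (0.99, 0.0297). At day 2 that of Oasl1 passed with pseudocount 5 (1.46, adjusted p = 0.0147) or a common total (1.93, 0.047), and at day 5 that of Rsad2 under edgeR (1.26, 0.0433). With no filter those of Isg15 (1.81, adjusted p = 0.0482) and Oas1a (1.48, 0.0464), which the filter had kept out, passed at month 10. The log2 fold change of Oas1a was then -0.25 in WT and 1.23 in Mgmt-/- livers, so part of its term is a value below 0 in WT mice. That of Isg15 in WT mice was -0.78 in batch 200803Eng, the only batch where it passed the filter.

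**Figure D3:**
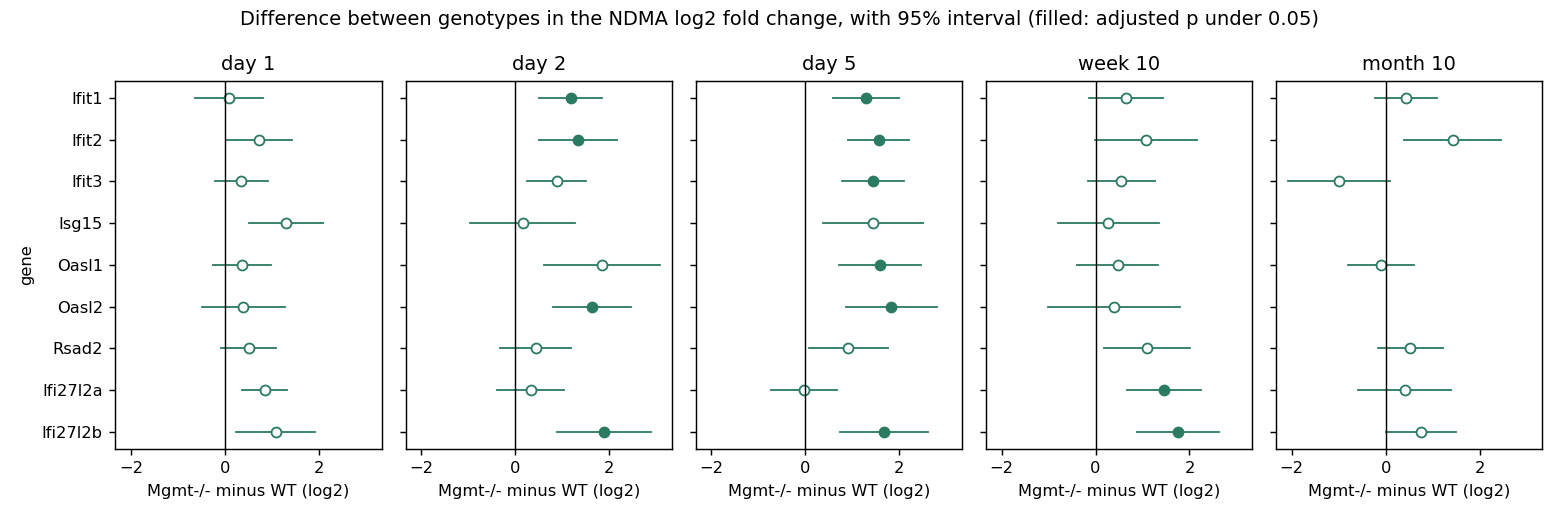
Genotype by treatment terms (log2 fold change in Mgmt-/- minus that in WT livers) on the x axis with 95% confidence intervals for the effector genes (y axis), with a panel for each time and points filled where the adjusted p was below 0.05. At day 5 all genes except Ifi27l2a (-0.03) lie above 0, and at week 10 only the 2 Ifi27l2 genes are filled.

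Across time in Mgmt-/- mice, no member had a called difference in response between days 1 and 2 or between days 2 and 5 (0 of 9 each, and 0 with an unadjusted p under 0.05; 0.0297% and 0.00991% of all genes called by limma). Between day 5 and week 10 the response of Ifit3 fell by 1.68 on the log2 scale (95% CI -2.54 to -0.83, adjusted p = 0.00906, limma) and that of Isg15 by 1.67 (-2.64 to -0.70, adjusted p = 0.029), 2 of 9 against 4.32% of all genes, and the latter was lost with a common total (adjusted p = 0.0574). With the 2 saline livers of high Kap kept, Ifit1 (-1.41, adjusted p = 0.0296) and Oasl1 (-1.53, adjusted p = 0.0201) had such a term too. Between week 10 and month 10 that of Ifi27l2b dropped by 1.21 (-1.87 to -0.55, adjusted p = 0.037), 1 of 9 against 1.4%, and this was lost with pseudocount 0.5 (adjusted p = 0.051) and with no filter (0.0558). Livers of days 2 and 5 came from a single library batch and those of week 10 and month 10 from another, so the change from day 5 to week 10 cannot be told apart from that of the batch.

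At day 1 several batches held both treatments, and the result differed among them. In WT mice batch 191212Eng (8 NDMA and 8 saline livers) gave 5 of 9 called members, against 5.44% of all genes, with a median log2 fold change of 1.16. Batch 210901Eng (12 and 9) gave 7 of 9 (6.36% of all genes) with 1.03, Oas1a among them (1.19, adjusted p = 0.00966), which passed the filter there. Batch 200803Eng (6 and 4) gave 0 calls and a median of 0.08, with 5 of 9 values above 0, Ifit2 (-0.57), Ifit3 (-0.66), Ifi27l2a (-0.49) and Oasl2 (-0.00075) below it, and limma called 0% of all genes there. In that batch the 4 NDMA livers other than D209072 and D209077 had 72.0 to 102 normalized counts of Ifi27l2b, and the 4 saline livers had 7.21, 9.51, 23.0 and 72.7. Without D209072 and D209077 7 members were called at day 1 in WT mice instead of 5. In Mgmt-/- mice batch 191212Eng (8 and 8) gave 9 of 9 calls, against 9.33% of all genes (median 1.50), and batch 200803Eng (4 and 4) gave 3 of 9 (2.64% of all genes), Ifi27l2a (1.02), Ifi27l2b (3.82) and Isg15 (2.03), with 8 of 9 values above 0 and Oasl2 at -0.29.

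**Figure D4:**
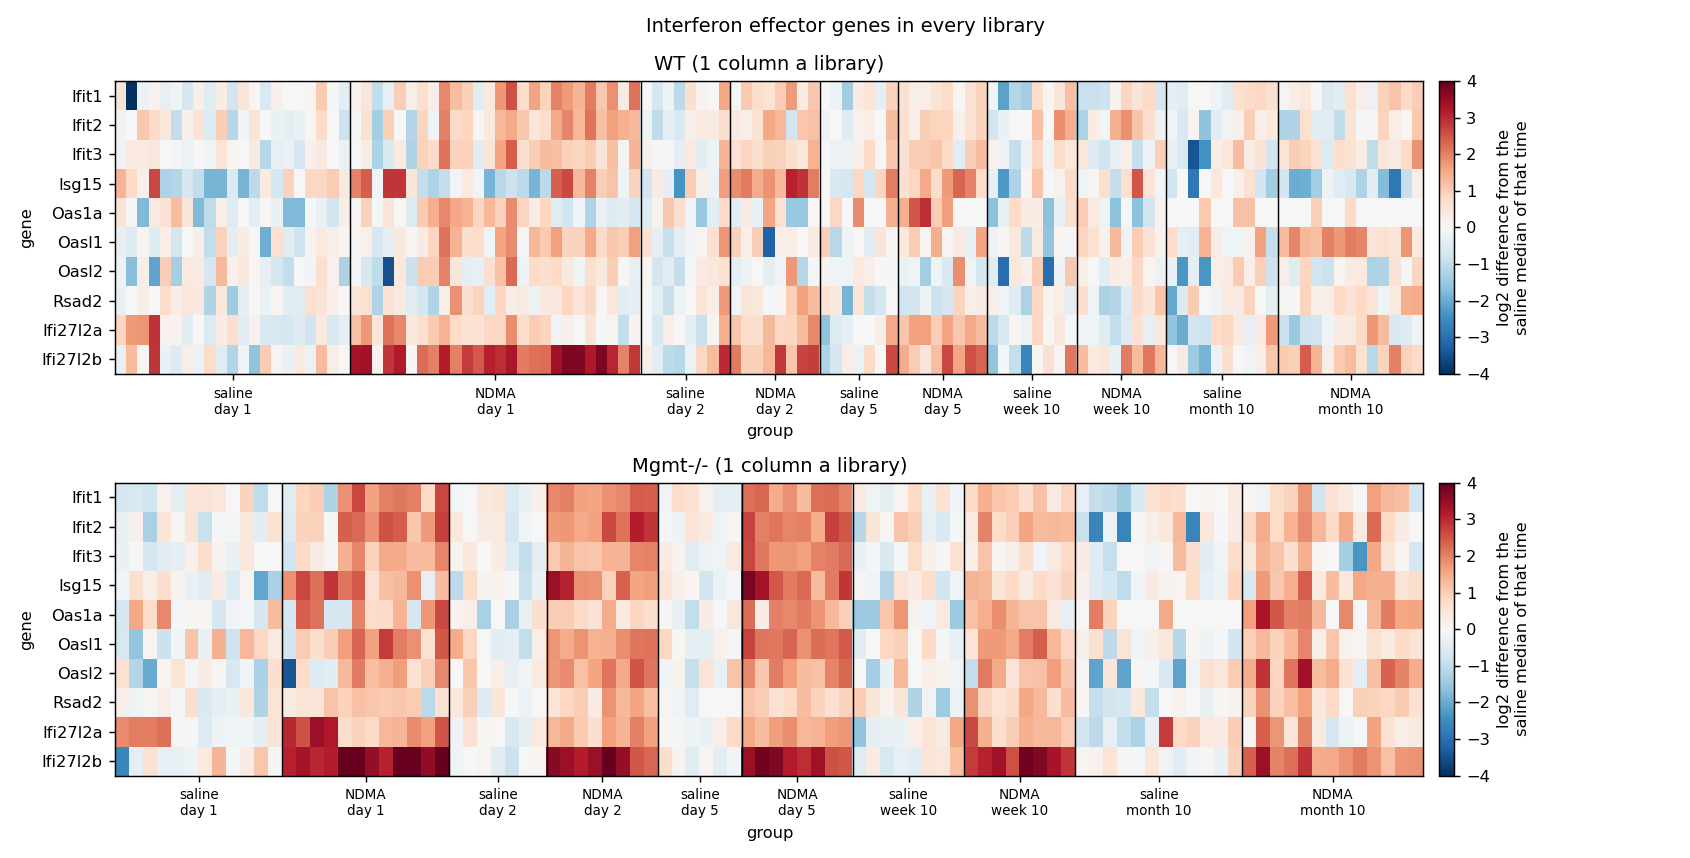
Each liver's log2(normalized count + 1) of the 10 effector genes minus the median of the saline livers of its genotype and time (colour, from -4 in blue to 4 in red), with genes in rows and livers in columns by group. NDMA columns of Mgmt-/- mice at days 2 and 5 are high in nearly all genes, and 1 saline column at the end of each of days 2 and 5 in WT mice (D215004 and D215012) is redder than its group.

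The other genes of the pathway were taken from lists by role. Of 14 listed ligand genes, Ifna12 alone was abundant enough to be tested, and it was not called in any comparison. Ifnb1, which the WT table does not list, was at 0 in 92 of 94 Mgmt-/- livers, the others being 1 NDMA liver at day 2 (0.797 normalized counts) and 1 saline liver at month 10 (0.869). Ifng, the gene of interferon gamma, was below the filter too, with a highest value of 4.89 normalized counts in Mgmt-/- livers, in an NDMA liver at day 5, when 6 of 8 NDMA livers and 0 of 6 saline livers had any read. The receptor chains Ifnar1 and Ifnar2 were not called at any time in either genotype. Il10rb, a chain of the type III interferon receptor, was higher in Mgmt-/- livers on days 2 (0.63) and 5 (0.63) and at week 10 (0.94). Ifngr1, a chain of the interferon gamma receptor, was higher at week 10 in Mgmt-/- livers (0.65) and lower at day 2 in WT livers (-0.74).

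Of 9 genes for factors of ISGF3 and factors that induce interferon, 4, 5, 4, 0 and 2 were higher in Mgmt-/- livers from day 1 to month 10, and 4, 2, 0, 0 and 0 in WT livers (8 tested at days 2 and 5). None was lower. For this list and the next 2, the shares of all genes called higher were 9.06%, 12.4%, 11.1%, 7.27% and 4.75% in Mgmt-/- livers. In WT livers they were 5.01%, 3.33%, 2.22%, 0.0249% and 0%. Irf7, which drives interferon alpha genes, had 1.17 in Mgmt-/- and 0.63 in WT livers at day 1. Of 5 genes that attach Isg15 to proteins or remove it, 2, 3, 3, 1 and 1 were higher in Mgmt-/- livers and 2, 1, 0, 0 and 0 in WT livers. Usp18, the protease that removes Isg15, was among those called at all 5 times in Mgmt-/- livers (1.22 at day 1). Of 5 further Ifit and Ifi27 genes at most 2 were abundant enough to test, and 2, 2, 2, 1 and 1 were higher in Mgmt-/- livers and 2, 1, 0, 0 and 0 in WT livers. Ifi27, of the same family as Ifi27l2b, rose by 1.47 in Mgmt-/- and 1.11 in WT livers at day 1. Of 10 genes for RNase L and other oligoadenylate synthetases at most 1 could be tested in a comparison, and it was not called.

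Of 34 other antiviral effectors listed, 16 of 29 tested, 21 of 30, 22 of 29, 8 of 29 and 12 of 28 were higher in Mgmt-/- livers from day 1 to month 10. In WT livers the counts were 10 of 28, 5 of 27, 2 of 26, 0 of 24 and 0 of 24, with none lower. For this list and the gamma list below, 9.06%, 12.4%, 11.1%, 7.27% and 4.75% of all genes were called higher in Mgmt-/- livers. The WT shares were 5.01%, 3.33%, 2.22%, 0.0249% and 0%. Cmpk2, the neighbour of Rsad2 and a mitochondrial nucleotide kinase, had a log2 fold change of 2.12 in Mgmt-/- livers at day 1. The median log2 fold change of this list in Mgmt-/- livers was 0.68, 0.86, 0.95, 0.79 and 0.56, where that of the 9 tested effectors was 1.37, 1.66, 2.02, 1.11 and 1.11, a difference that was not tested. Of 16 genes known to answer mainly to interferon gamma, 10 of 13, 14 of 14, 12 of 12, 4 of 10 and 5 of 11 were higher in Mgmt-/- livers and 12 of 12, 10 of 12, 5 of 10, 0 of 9 and 0 of 9 in WT livers. Cxcl9, a chemokine for T cells, had 4.46 and Gbp2, a guanylate-binding protein, 4.28 in Mgmt-/- livers at day 2. The median of the gamma list was 1.60, 2.96, 2.69, 0.77 and 0.76 in Mgmt-/- livers.

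All 4 T and NK cell markers tested were higher in Mgmt-/- livers at days 2 and 5. Their summed level went from a saline median of 50.4 to an NDMA median of 315 normalized counts at day 2 and from 38.2 to 329 at day 5, with Gzma, a granzyme, the most abundant. At day 1 3 of 4 were higher (48.1 to 140), at week 10 Nkg7 alone (23.6 to 42.0), and at month 10 none was abundant enough to test (8.55 to 19.2). In WT livers 3 of 4 were higher at each of days 1, 2 and 5. Of 10 macrophage and Kupffer cell markers, 2 were higher and 3 lower in Mgmt-/- livers at day 1, and 7, 6, 5 and 3 were higher at the later times, with summed medians of 1069 and 2314 at day 2 and Lyz2 the most abundant. Of 5 neutrophil markers 4, 3 and 4 were lower with NDMA on days 1, 2 and 5 in these mice, and Ngp and Camp were higher at week 10. No marker of plasmacytoid dendritic cells, which make much type I interferon, passed the filter on low values in any comparison. The summed medians of that list in Mgmt-/- livers at day 2 were 3.46 and 14.3, with Siglech the most abundant. Of 5 hepatocyte markers 3 were lower at each of days 1 and 2 in Mgmt-/- livers. Of all genes in Mgmt-/- livers, 9.06%, 12.4%, 11.1%, 7.27% and 4.75% were called higher from day 1 to month 10. The shares called lower there were 8.64%, 7.5%, 6.71%, 3.88% and 2.99%. In WT livers 5.01%, 3.33% and 2.22% of all genes were called higher on days 1, 2 and 5. The part of these cell types in the rise of the effectors was not tested.

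Within groups the effectors moved together only in part. Over 94 Mgmt-/- livers, with each value taken as its deviation from the mean of its group, Pearson's r of Ifit1 was 0.58 with Ifit2, while its median r with the other members was 0.17. The median was 0.24 for Ifit3, 0.28 for Oasl2, 0.06 for Isg15 and 0.07 for Ifi27l2b. Over 117 WT livers it was 0.33 for Ifit1, 0.32 for Ifit3, 0.17 for Oasl2, 0.15 for Isg15 and 0.27 for Ifi27l2b. Of 6107 genes whose mean reached 20 in Mgmt-/- livers, those most like Ifit1 included Igtp (0.68), Herc6 (0.64), Erlin2 (0.62) and Usp18 (0.62). Those most like Ifi27l2b included Arpc1b (0.67), Fam50a (0.62), Crip2 (0.60) and Hsdl2 (0.57). These correlations are descriptions over livers that share batches and sequencing runs. The mean of the members had an r with the log2 number of reads of 0.23 in Mgmt-/- and -0.03 in WT livers.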

How the data were processed

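Liver tissue was kept in RNAlater, and its RNA was sequenced by 3′ digital gene expression with molecular identifiers, whose use in counting is not given in the sources used here. The authors aligned reads with STAR to GRCm38/mm10, counted genes with ESAT and deposited 1 table for each genotype, in which the signal values are counts divided by a DESeq2 size factor, normalized apart. Whole reads were recovered by dividing each of 213 columns by its step, and all values were whole within 0.05 reads. In 4 libraries the step was too close to 1, and these were left out of edgeR 4.0.16 and DESeq2 1.42.0, which were run as alternatives. The main test was limma 3.58.1 (R 4.3.3, trend and robust) on log2(value + 1), with a mean of at least 5 in the libraries compared, and treatment, sex and batch as terms. Genotype, time and sex terms were fitted likewise. Fold changes are on the log2(value + 1) scale and understate low genes. In each list up to 4 called genes with the largest changes could be named. Likeness was Pearson's r over deviations from group means over genes whose mean reached 20. The methods were tested on simulated data: 99.5% of genes changed 4-fold and 39.5% of those changed 2-fold were recovered at day 2 in Mgmt-/- mice (95% and 3.5% in WT mice), and the day 2 genotype term recovered 65.5% and 0%. False calls made up 2.93% and 3.66% of the limma calls at day 2 in Mgmt-/- mice, 1.97% and 2.35% with edgeR and 9.13% and 11.9% with DESeq2, and for the sex term 10.3% at 4-fold, where 39% were recovered. The changed genes had a saline mean of at least 10, above the saline medians of Isg15 and Oas1a, so recovery of such low members is not covered. The simulated spread was alike for all genes, without sex, batch or litter effects. For the sex term the changed livers were drawn around means over all Mgmt-/- libraries, so its folds are approximate. The 10 genes, the lists and the tests were chosen with earlier results of these data known. A Mgmt-/- saline library of month 10 was not analysed here. Some genes that the naming rule covers are not reported here.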

Additional observations from a re-analysis of the deposited data

Results flagged for a closer look

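In groups of 4 to 10 livers, 130 sets of 1 gene in 1 group were searched for a liver whose gap to its nearest neighbour was large against the range of the group. There were 8 such values in 7 livers, and about 1 in 20 sets is expected to have one by chance. The highest were Ifit3 in WT saline replicate D215004 at day 2 (88.9 normalized counts), Oasl2 in WT NDMA replicate D215006 at day 2 (52.6), Oasl2 in WT NDMA replicate D215014 at day 5 (41.0), Isg15 in WT NDMA replicate D215022 at week 10 (27.4) and Ifi27l2a in Mgmt-/- NDMA replicate D209005 at week 10 (1169.8). The lowest were Oasl1 in WT NDMA replicate D202008 at day 2 (0), Ifit3 in WT NDMA replicate D215014 at day 5 (16.4) and Rsad2 in WT saline replicate D202024 at month 10 (1.60). Of these 8, 4 were in the 3 WT NDMA libraries D215006, D215014 and D215022, each with fewer than 300000 reads.

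The response to NDMA differed between genotypes, by the interaction term in limma, in 12 cases (log2 scale, Mgmt-/- minus WT): Ifi27l2b (1.89), Oasl2 (1.64), Ifit2 (1.33) and Ifit1 (1.18) at day 2, Oasl2 (1.83), Ifi27l2b (1.67), Oasl1 (1.59), Ifit2 (1.56), Ifit3 (1.44) and Ifit1 (1.29) at day 5, and Ifi27l2b (1.75) and Ifi27l2a (1.46) at week 10. At these 3 times the genotypes shared no library batch. Between times in Mgmt-/- mice the response of Ifit3 (-1.68) and Isg15 (-1.67) differed at week 10 from day 5, and that of Ifi27l2b (-1.21) at month 10 from week 10. Between sexes that of Ifi27l2a at month 10 in Mgmt-/- mice differed by -2.64 (female minus male).

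Of the 2 saline livers with high Kap that were left out, D389011 had Rsad2 at 86.3 normalized counts, and D389017 had Rsad2 at 75.2 and Ifit3 at 71.9, above the highest of the other 6 saline livers of Mgmt-/- mice at day 5 (38.9 for Rsad2 and 59.6 for Ifit3). Ifi27l2b was 0 in both.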

How the results depend on the processing

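Of 164 recounts of called members under alternative settings, 143 stayed within 1.5 times the main count and 21 did not. In WT mice the 5 calls of day 1 became 3 with a mean of at least 20 and 0 in batch 200803Eng alone, where Ifit2 (-0.57), Ifit3 (-0.66) and Ifi27l2a (-0.49, not called over all batches) turned negative. The 3 calls of day 2 became 5 without libraries under 300000 reads, and the 2 of day 5 became 1 without covariates. In Mgmt-/- mice the 8 calls of day 1 became 3 in batch 200803Eng alone, and the 6 of month 10 became 3 with a mean of at least 20. Genotype terms of day 1 went from 0 to 1 with pseudocount 5, with a mean of at least 20 and after scaling libraries to 1 common total. Those of day 2 went from 4 to 2 under edgeR, those of day 5 from 6 to 3 with no filter, with a mean of at least 20 and with all saline libraries kept, and those of month 10 from 0 to 2 with no filter. Time terms between day 5 and week 10 went from 2 to 1 with a mean of at least 20 and with the common total, and to 4 with all saline libraries kept, and the term between week 10 and month 10 was lost (0) with pseudocount 0.5 and with no filter. The sex term was lost (0) with no filter and with the common total. Apart from the fewer genes or livers that a filter or batch leaves, the cause was not tested.

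Leaving out each liver in turn gave 3 to 5 calls at day 2 in WT mice (5 without D215004 or D215006), 1 to 3 at day 5 (1 without D202009, D202010 or D215011, 3 without D215012 or D215014) and 0 to 0 at week 10, and in Mgmt-/- mice 9 to 9 at days 2 and 5 and 5 to 8 at week 10. Alternatives chosen after seeing the data left out D209072 (6 calls at day 1 in WT mice) and D209091 (9 at day 1 in Mgmt-/- mice), and gave 0 genotype terms at day 1 without either, 3 at day 2 without D215004 and 4 at day 5 without D215012. Under the common total, the median log2 fold change of all genes in Mgmt-/- mice moved by 0.19, 0.16, 0.15 and 0.20 from day 1 to week 10. No paired analysis was possible because replicate codes were unique and no number was shared between groups. Depth limits Oas1a in all groups, and the low genes in the 4 WT libraries under 300000 reads.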
